A study of Homo sapiens with 4 samples.

Results

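The transcripts of 47 enzymes and carriers of glycolysis, the pentose phosphate pathway and the citrate cycle were compared between control and AARS1-knockdown HGC27 cells, a human gastric cancer cell line, when the cells were fed lactate and no glucose. The members were picked by gene symbol from the deposited table of 14431 genes. All 47 were listed, and all 47 were among the 14199 genes tested, which had a mean of at least 1 CPM (reads of a gene, scaled by library size) in 1 group. RNA was sequenced from 2 libraries labelled control and 2 labelled siAARS1, the second given siRNA that targets AARS1, the cytosolic enzyme that loads alanine onto its tRNA. Every library came from cells in DMEM lacking glucose, with 10% FBS, 1% antibiotics and 25 mM lactate. The labels put the lactate treatment at 24 h. Another duration is stated in the text of the study, so the time is uncertain. The labels call the control genotype WT and the table names its columns NC, and what the control cells were transfected with was not given in the sources used here. One cell line was used, no library without lactate was analysed here, and nothing in the labels says that libraries of a group came from separate cultures. The p-values therefore measure only the spread between these libraries, which may be technical.

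Glycolysis splits glucose to pyruvate in the cytosol. Its upper arm spends ATP to trap and cleave the sugar, and its lower arm earns ATP and NADH. The pentose phosphate pathway branches off after the hexokinase step and supplies NADPH and ribose 5-phosphate. Lactate enters metabolism beyond these steps: lactate dehydrogenase turns it into pyruvate, which the pyruvate dehydrogenase complex or pyruvate carboxylase passes into the citrate cycle of the mitochondrion. Many glycolytic genes are known targets of hypoxia-inducible factors (HIF), and the study as a whole asked about TEAD, the DNA-binding partner of YAP in the Hippo pathway.

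Promoter sequences are shown for members with some of the largest changes, DLD and SUCLA2 (higher), HK2 (higher) and ALDOC (lower), so that the letters can be read beside the values that follow. Each line holds 250 bases before and 50 after a transcript start (RefSeq, GRCh38.p14), 5′ to 3′ on the gene's strand. HK2 and DLD each had 2 such windows, of which the one with the lower coordinate is given. Capitals mark the HIF core ACGTG or the TEAD core GGAATG on either strand (CACGT and CATTCC are their reverse complements, and the palindrome CACGTG counts on both strands).
DLD, chr7:107890857-107891156, + strand: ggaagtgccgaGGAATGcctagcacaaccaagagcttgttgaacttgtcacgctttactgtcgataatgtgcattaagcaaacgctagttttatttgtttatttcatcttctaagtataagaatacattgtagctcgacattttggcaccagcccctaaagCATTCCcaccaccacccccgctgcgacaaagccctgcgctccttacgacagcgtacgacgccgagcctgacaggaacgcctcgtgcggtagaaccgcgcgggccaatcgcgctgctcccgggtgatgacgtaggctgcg
SUCLA2, chr13:48001224-48001523, - strand: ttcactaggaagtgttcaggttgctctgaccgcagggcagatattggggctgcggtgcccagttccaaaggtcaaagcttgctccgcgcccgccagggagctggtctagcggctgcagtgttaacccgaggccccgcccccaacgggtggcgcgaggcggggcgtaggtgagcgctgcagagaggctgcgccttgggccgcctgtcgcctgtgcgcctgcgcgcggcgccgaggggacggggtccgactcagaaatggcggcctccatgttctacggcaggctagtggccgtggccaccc
HK2, chr2:74833877-74834176, + strand: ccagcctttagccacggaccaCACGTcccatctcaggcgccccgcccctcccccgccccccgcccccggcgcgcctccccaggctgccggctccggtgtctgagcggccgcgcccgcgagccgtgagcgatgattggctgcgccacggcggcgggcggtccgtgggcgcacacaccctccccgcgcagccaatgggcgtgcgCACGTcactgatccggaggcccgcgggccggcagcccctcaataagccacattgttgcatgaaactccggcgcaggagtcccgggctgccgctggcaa
ALDOC, chr17:28576846-28577145, - strand: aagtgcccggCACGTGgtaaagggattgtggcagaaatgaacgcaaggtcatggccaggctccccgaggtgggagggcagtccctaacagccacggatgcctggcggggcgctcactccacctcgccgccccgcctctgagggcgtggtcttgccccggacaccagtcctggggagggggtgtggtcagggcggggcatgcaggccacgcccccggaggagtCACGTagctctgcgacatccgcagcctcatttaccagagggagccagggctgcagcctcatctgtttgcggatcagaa
The DLD window held 2 matches to the TEAD core and none to the HIF core. The HK2 window held 2 matches to the HIF core and that of ALDOC held 3. HK2 was higher and ALDOC lower in siAARS1 cells, and a relation to the matches was not tested. The SUCLA2 window held neither core. The other 2 members changed at least 1.5-fold are not printed: the 1 window of RPE and the lowest-coordinate one of the 7 windows of HK1 also held neither core. Windows were found for 45 of the 47 members, 70 windows in all. The HIF core was in 21 of them, for 17 members, and in 21.4% of all 35116 windows of the same length in the table. The TEAD core was in 12 of them, for 10 members, and in 14.0% of all windows. A match describes letters only.

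Reads in listed genes numbered 30653210 to 33522573 per library, and the members had 325 to 243090 reads each per library. Replicates correlated with r = 0.997 across genes on log2(CPM + 1), and genes are not independent replicates. AARS1, listed as AARS, stood at 428 and 417 CPM in controls against 292 and 298 CPM after knockdown, 69.7% of the control mean (log2 fold change −0.52 ± 0.04 SE, adjusted p = 2.52e-11). None of 6 immune, endothelial and liver markers was listed. Of 5 epithelial markers only KRT8 and CDH1 were listed, with a sum of 27.3 and 27.0 CPM in controls against 7.29 and 6.14 after knockdown, while KRT18, KRT19 and EPCAM were not. Of 4 mesenchymal markers 3 were listed (VIM, ZEB1 and FN1, with CDH2 not listed). Their sum was 5209 and 5150 CPM in controls against 4814 and 4704 after knockdown, nearly all of it VIM. VIM fell from 5131 and 5068 CPM in controls to 4710 and 4600 CPM after knockdown. FN1 fell from 72.6 and 75.4 CPM in controls to 54.2 and 51.7 CPM after knockdown. ZEB1 went the other way, with 6.16 and 6.84 CPM in control and 50.03 and 52.31 in siAARS1 cells. The part of these marker shifts in the results was not tested.

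In siAARS1 cells the members moved in both directions, and most by little. The largest rises were in 2 mitochondrial enzyme subunits, SUCLA2 (3.14-fold) and DLD (2.44-fold), followed by the pentose phosphate epimerase RPE (1.61-fold) and the inducible hexokinase HK2 (1.55-fold). The largest falls were in the other hexokinase, HK1 (1.61-fold lower), and in aldolase C, ALDOC (1.58-fold lower). These folds are ratios of mean CPM over n = 2 libraries a group. In the deposited scaling the main enzymes of lower glycolysis differed little between the groups. Their calls changed with the scaling and with a correction for GC content and length. In bulk RNA, fewer cells of a type and less RNA per cell cannot be told apart.

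By limma on log2(CPM + 1) with Benjamini-Hochberg adjustment over all 14199 genes, 37 of the 47 members passed the threshold of 0.05, 13 higher and 24 lower. That is 78.7% of the members, beside 70.7% of all genes tested. The share called higher was 27.7% of the members and 32.6% of all genes, and the share called lower was 51.1% of the members and 38.0% of all genes. In 45 members the siAARS1 libraries did not overlap the control libraries (14 above, 31 below), as in 85.1% of all genes. At least 1.5-fold changed and called were 4 members higher and 2 lower, where 18.6% of all genes were higher and 9.16% lower by this rule. The median log2 fold change was −0.08 over the members and −0.05 over all genes.

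The split between higher and lower depended on the scaling of the libraries. When each library was shifted to the same median, the median over all genes moved from −0.05 to −0.27 and the split of members became 7 higher and 35 lower (23.3% and 57.6% of all genes). Counted over the deposited scaling and 4 other scalings (median, quantile, edgeR with TMM, and DESeq2), 6 members were called higher in all of them (SLC2A1, HK2, RPE, DLAT, DLD and SUCLA2) and 18 lower (HK1, PFKL, PFKP, ALDOC, TPI1, ENO2, PGLS, PGD, TKT, TALDO1, PDHA1, PDHB, IDH3G, OGDH, DLST, MDH2, ACO1 and IDH2). The same held for 23.1% and 27.0% of all genes.

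**Figure D1:**
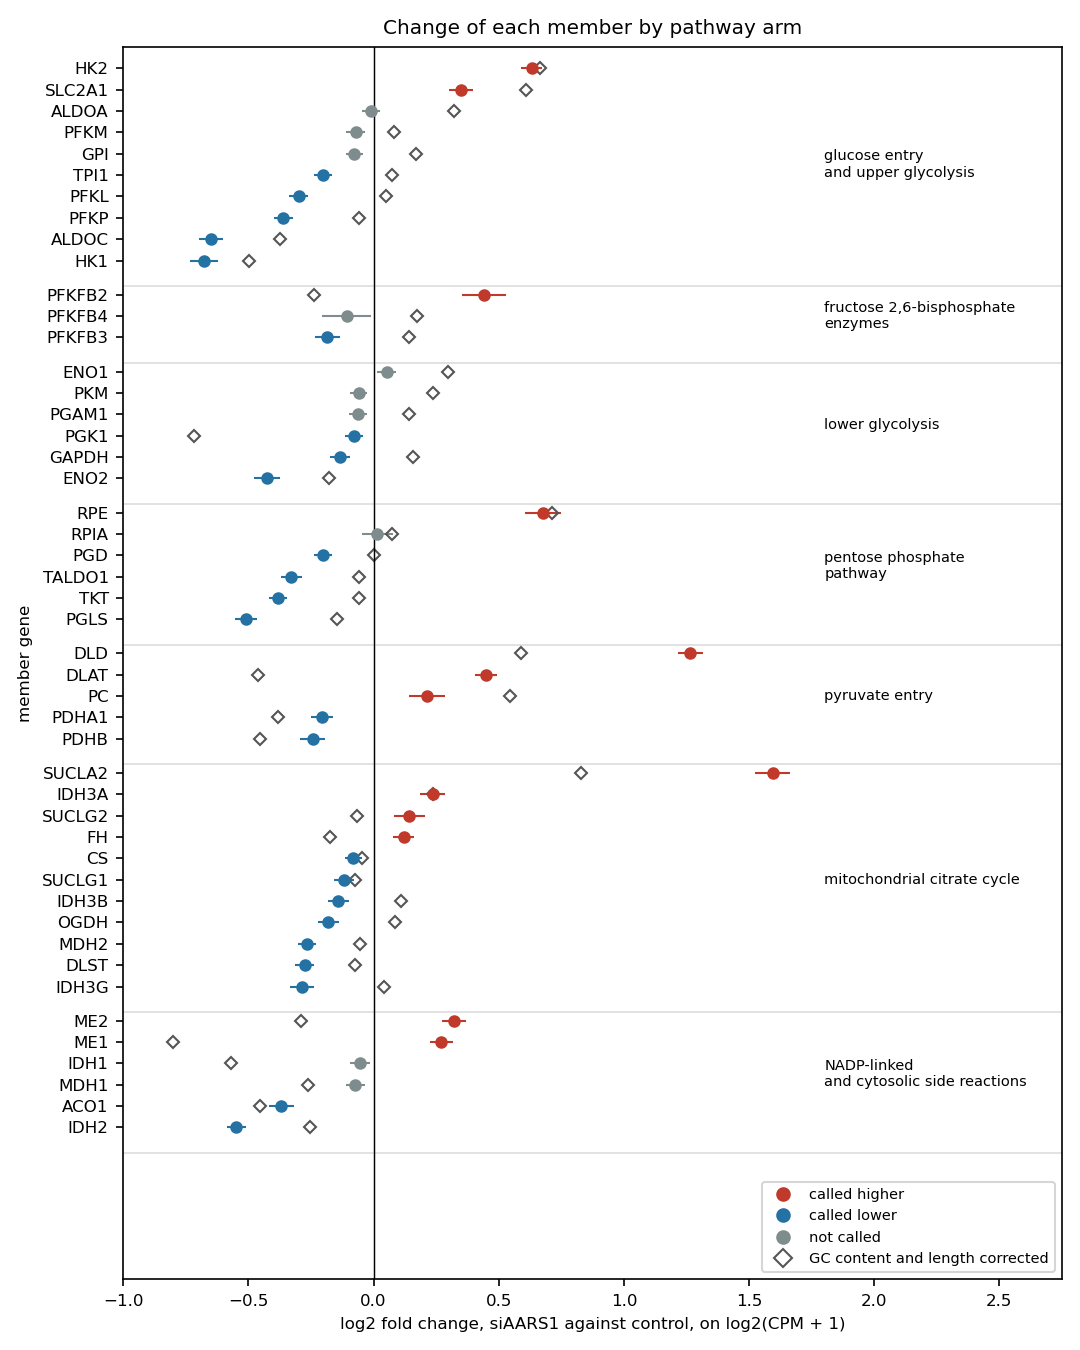
Log2 fold change of siAARS1 against control on log2(CPM + 1) for each of the 47 members, grouped by pathway arm. Circles are the limma estimates with bars of 1 SE, coloured by call at an adjusted p of 0.05, and open diamonds are the values after correction for GC content and length, which lie on the other side of 0 for 20 members. SUCLA2 at 1.59 and DLD at 1.27 stand apart from the rest, which lie between −0.68 and 0.68.

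Glucose entry and upper glycolysis held 10 members, of which 2 rose, 5 fell and 3 did not pass. The counts of this and every other arm stand beside 32.6% of all genes called higher and 38.0% called lower. Hexokinases trap glucose as glucose 6-phosphate, and the 2 listed ones, HK1 and HK2, went opposite ways. HK2 (chromosome 2, 74833981 to 74893359, GRCh38) had 88.7 and 89.3 CPM in controls against 138 and 139 CPM after knockdown, a log2 fold change of 0.63 ± 0.04 (adjusted p = 1.39e-11). HK1 (chromosome 10, 69269984 to 69401884) had 67.2 and 63.7 CPM in controls against 42.4 and 38.7 CPM after knockdown, a log2 fold change of −0.68 ± 0.06 (adjusted p = 7.00e-10). Both siAARS1 libraries lay above both controls for HK2 and below them for HK1. The glucose carrier SLC2A1 (GLUT1) also rose, by 0.35 ± 0.05 on the log2 scale (adjusted p = 1.67e-06).

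Phosphofructokinase commits the sugar to glycolysis, and its liver and platelet forms fell. PFKL had 270 and 275 CPM in controls against 229 and 214 CPM after knockdown (log2 fold change −0.30, adjusted p = 7.55e-07). PFKP had 326 and 320 CPM in controls against 255 and 248 CPM after knockdown (−0.36, adjusted p = 1.48e-08). For both forms the siAARS1 libraries lay below the controls. The muscle form PFKM had 285 and 275 CPM against 267 and 266 CPM and did not pass (−0.07, adjusted p = 0.0857). Aldolase cleaves the sugar. Its main form ALDOA had 1350 and 1369 CPM against 1381 and 1318 CPM, with the groups overlapping (−0.01, adjusted p = 0.796), while ALDOC (chromosome 17, 28573115 to 28577264) fell from 94.2 and 96.0 CPM to 62.2 and 58.6 CPM (−0.65 ± 0.05, adjusted p = 9.51e-11). Among the isomerases, TPI1 fell by 0.20 (adjusted p = 2.13e-05) and GPI stood at −0.08 (adjusted p = 0.0519). ALDOC shares bases with another listed gene on its own strand. Reads of shared bases cannot be told apart by strand, so the ALDOC value is uncertain to that extent.

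**Figure D2:**
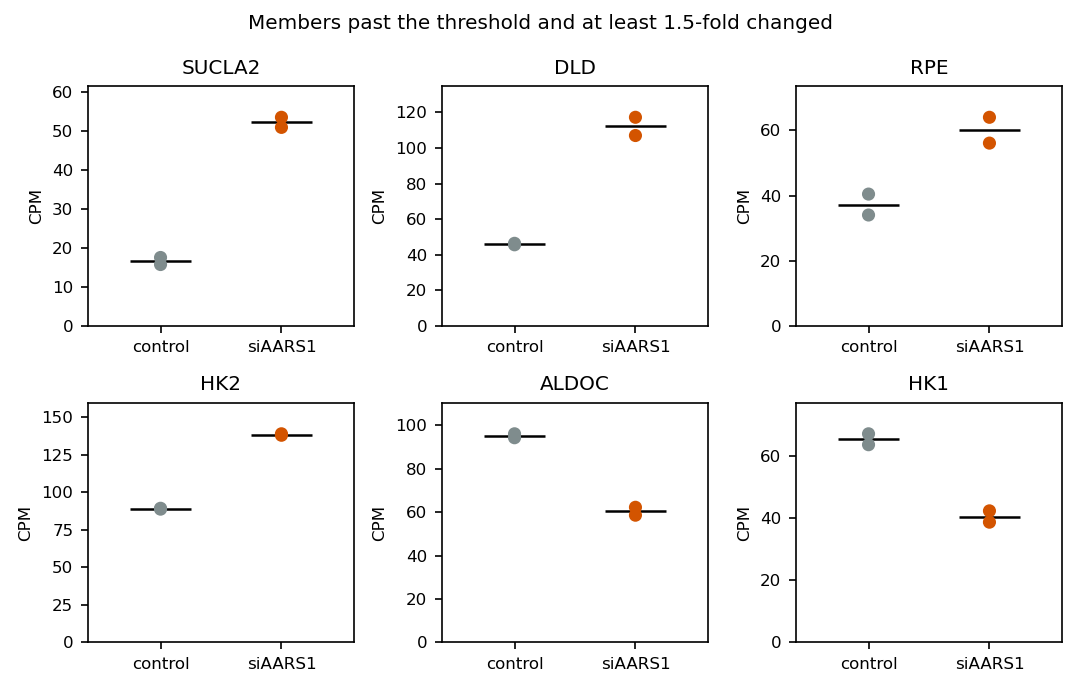
CPM in each of the 4 libraries (points) with the group mean (line) for the 6 members called and at least 1.5-fold changed. In each panel the siAARS1 libraries lie wholly above the controls (SUCLA2, DLD, RPE and HK2) or wholly below them (ALDOC and HK1).

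Fructose 2,6-bisphosphate, the activator of phosphofructokinase, is made and removed by the PFKFB enzymes, and of the 3 members 1 was called higher, 1 lower and 1 not. PFKFB2 had 11.6 and 11.2 CPM in controls against 16.1 and 15.5 CPM after knockdown (log2 fold change 0.44 ± 0.09, adjusted p = 1.53e-04). PFKFB3 had 69.6 and 69.6 CPM in controls against 61.0 and 61.3 CPM after knockdown (−0.18 ± 0.05, adjusted p = 0.00193). The groups lay apart for both. PFKFB4 was at −0.11 (adjusted p = 0.327). Neither call held in every scaling: PFKFB2 had an adjusted p of 0.0541 after quantile normalization, and PFKFB3 one of 0.0742 by DESeq2.

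Lower glycolysis held 6 members, of which none was called higher, 3 were called lower and 3 did not pass. Under median scaling all 6 were called lower, as were 57.6% of all genes. After correction for GC content and length 4 were called higher and 2 lower (32.0% and 34.1% of all genes). ENO1, the main enolase, had 3692 and 3693 CPM in controls against 3913 and 3744 CPM after knockdown (log2 fold change 0.05, adjusted p = 0.211). ENO2, the neuronal form, had 65.9 and 65.1 CPM in controls against 49.9 and 47.2 CPM after knockdown (−0.42 ± 0.05, adjusted p = 2.65e-07), with the groups apart. ENO2 overlaps LRRC23, PGK1 overlaps ATP7A, and CS of the citrate cycle overlaps AC073896.1, each on the same strand. GAPDH, which makes the first NADH of the pathway, was called lower at −0.13 (adjusted p = 0.00422), but quantile normalization put it at 0.17. PGK1, the first ATP-forming step, was called lower at −0.08 (adjusted p = 0.0489). Its call was lost when any 1 of the 4 libraries was left out, with values from −0.10 to −0.05. PGAM1 and PKM, the mutase and the pyruvate kinase, stood at −0.06 each (adjusted p = 0.114 and 0.123). GAPDH, PGK1, PGAM1, ENO1 and TPI1 have close processed copies in the genome, and how reads shared with those were counted was not given.

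In the pentose phosphate pathway 4 of 6 members fell, 1 rose and 1 did not pass, where 38.0% of all genes were called lower and 32.6% higher. PGLS and PGD, of the oxidative branch, were among those that fell. PGLS, the lactonase, had 163 and 176 CPM in controls against 120 and 117 CPM after knockdown (log2 fold change −0.51 ± 0.04, adjusted p = 1.001e-09), and PGD, the dehydrogenase that follows it, was at −0.20 (adjusted p = 2.91e-05). The carbon-shuffling enzymes TKT and TALDO1 fell by 0.38 (adjusted p = 3.23e-09) and 0.33 (adjusted p = 6.10e-07). RPE, which interconverts ribulose and xylulose phosphates, went the other way (chromosome 2, 210002565 to 210022259). It had 34.0 and 40.5 CPM in controls against 56.1 and 64.0 CPM after knockdown (0.68 ± 0.07, adjusted p = 3.03e-08). The siAARS1 libraries were both above the controls. RPIA, the isomerase of the same branch point, overlapped between groups (0.01, adjusted p = 0.846).

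Pyruvate entry held 5 members and all 5 were called, 3 higher and 2 lower, beside 70.7% of all genes called. DLD, the E3 subunit that reoxidises lipoamide in the pyruvate and 2-oxoglutarate dehydrogenase complexes (chromosome 7, 107890970 to 107931730), had 45.6 and 46.4 CPM in controls against 107 and 117 CPM after knockdown. Its log2 fold change was 1.27 ± 0.05 (adjusted p = 2.37e-15). DLAT, the E2 subunit of the pyruvate complex, rose by 0.45 ± 0.04 (adjusted p = 7.58e-09). Both E1 subunits fell, PDHA1 by 0.20 (adjusted p = 3.26e-04) and PDHB by 0.24 (adjusted p = 2.51e-04). PDHB had 64.1 and 61.1 CPM in controls against 52.4 and 53.1 CPM after knockdown. PC, which carboxylates pyruvate to oxaloacetate, was called higher at 0.21 (adjusted p = 0.0121), a call lost under median scaling (−0.01) and without control replicate 2 or siAARS1 replicate 1 (0.16 in both). DLD overlaps LAMB1, and PC overlaps LRFN4, each on the other strand, so reads of these pairs cannot be told apart if strand was not used. The same holds for opposite-strand neighbours of SLC2A1, HK2, PFKM, TPI1, PFKFB2, GAPDH, PGLS, RPE, DLAT, PDHA1, IDH3A, IDH3G, MDH1 and SUCLA2.

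The mitochondrial citrate cycle held 11 members, and all 11 passed, 4 called higher and 7 lower, beside 70.7% of all genes called. After correction for GC content and length 4 of the 11 were called higher and 2 lower (32.0% and 34.1% of all genes). SUCLA2, the beta subunit of the ADP-forming succinyl-CoA ligase (chromosome 13, 47745736 to 48037968), had 15.7 and 17.5 CPM in controls against 50.8 and 53.4 CPM after knockdown. Its log2 fold change of 1.59 ± 0.07 (adjusted p = 7.01e-15) was the largest of the members. SUCLG2, the beta subunit of the GDP-forming ligase, had 33.2 and 35.8 CPM in controls against 39.1 and 37.2 CPM after knockdown (0.14 ± 0.06, adjusted p = 0.0467). It turned to −0.08 under median scaling and −0.04 under quantile normalization. SUCLG1, the alpha subunit that both ligases share, was called lower at −0.12 (adjusted p = 0.0134), but did not pass with edgeR (adjusted p = 0.0908).

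Of the oxidative steps, IDH3G, a regulatory subunit of NAD isocitrate dehydrogenase, had 112 and 110 CPM in controls against 95.2 and 86.2 CPM after knockdown (log2 fold change −0.29 ± 0.05, adjusted p = 2.08e-05). DLST and OGDH, the E2 and E1 subunits of the 2-oxoglutarate complex, fell by 0.28 (adjusted p = 1.09e-06) and 0.18 (adjusted p = 4.74e-04), unlike DLD, the E3 subunit of that complex. MDH2, which closes the cycle, fell from 713 and 727 CPM to 614 and 582 CPM (−0.27, adjusted p = 1.06e-06). In all 4 of these the siAARS1 libraries lay below the controls. The remaining 4 calls depended on the scaling. IDH3A, the catalytic subunit, was called higher at 0.24 but stood at 0.02 under median scaling, FH was called higher at 0.12 but stood at −0.10 there, and IDH3B (−0.14) and CS (−0.08) were called lower but not by DESeq2 (adjusted p = 0.135 and 0.459).

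Several of these small calls were lost when 1 library was left out, most with little change in the value. CS lost its call without control replicate 1 (−0.08), control replicate 2 (−0.08) or siAARS1 replicate 2 (−0.08). IDH3B lost it without control replicate 2 (−0.10), and SUCLG1 without control replicate 1 (−0.11) or siAARS1 replicate 2 (−0.11). SUCLG2 lost it without control replicate 1 (0.09), siAARS1 replicate 1 (0.11) or siAARS1 replicate 2 (0.18). FH lost it without control replicate 1 (0.12), control replicate 2 (0.12) or siAARS1 replicate 2 (0.08). Over all arms, 30 of the 37 called members kept their direction and call in all 4 such fits, 7 lost the call in at least 1, and 0 reversed.

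The NADP-linked and cytosolic side reactions held 6 members, 2 called higher, 2 lower and 2 not called. The malic enzyme ME2 was grouped with them, although it is mitochondrial and uses mainly NAD. IDH2, the mitochondrial NADP isocitrate dehydrogenase, had 211 and 214 CPM in controls against 147 and 143 CPM after knockdown (log2 fold change −0.55 ± 0.04, adjusted p = 4.32e-11). IDH1, its cytosolic counterpart, had 167 and 171 CPM against 161 and 164 CPM (−0.06, adjusted p = 0.213). The cytosolic aconitase ACO1 fell by 0.37 (adjusted p = 1.20e-06). The malic enzymes ME1 and ME2, which turn malate into pyruvate, were called higher. ME1 had 75.3 and 76.4 CPM in controls against 90.0 and 93.3 CPM after knockdown (0.27, adjusted p = 2.18e-05), and ME2 had 78.6 and 84.5 against 101 and 103 CPM (0.32, adjusted p = 3.26e-06). Both siAARS1 libraries lay above both controls for each enzyme. Under median scaling ME1 stood at 0.05 (adjusted p = 0.329) and ME2 at 0.10 (adjusted p = 0.0519). MDH1, the cytosolic malate dehydrogenase, had 219 and 213 CPM against 206 and 204 CPM (−0.07, adjusted p = 0.0866).

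Levels were compared between genes only after division by the median transcript length, as CPM per kilobase. GAPDH had the highest mean, 5671 CPM per kilobase in control and 5165 in siAARS1 cells, followed by ENO1 (2072 and 2148) and ALDOA (877 and 871). PFKFB2 had the lowest, 2.15 and 2.98 CPM per kilobase. Among pyruvate dehydrogenase subunits in control cells PDHB had 42.0, PDHA1 29.5, DLAT 24.3 and DLD 23.9 CPM per kilobase. In siAARS1 cells DLD was at 58.2, PDHB at 35.4, DLAT at 33.3 and PDHA1 at 25.6. The place of DLD depends on the length used: per kilobase of the longest transcript it had 12.2 in control and 29.8 in siAARS1 cells, below PDHB (41.01 and 34.5). In the citrate cycle SUCLA2 was the lowest in control cells, at 8.07 CPM per kilobase, and rose to 25.3, next to SUCLG2 at 25.2. By the longest transcript these were 22.5 for SUCLA2 and 16.2 for SUCLG2 in siAARS1 cells. The 47 members together took 2.46% and 2.49% of the listed CPM in control libraries and 2.34% and 2.26% in siAARS1 libraries.

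**Figure D3:**
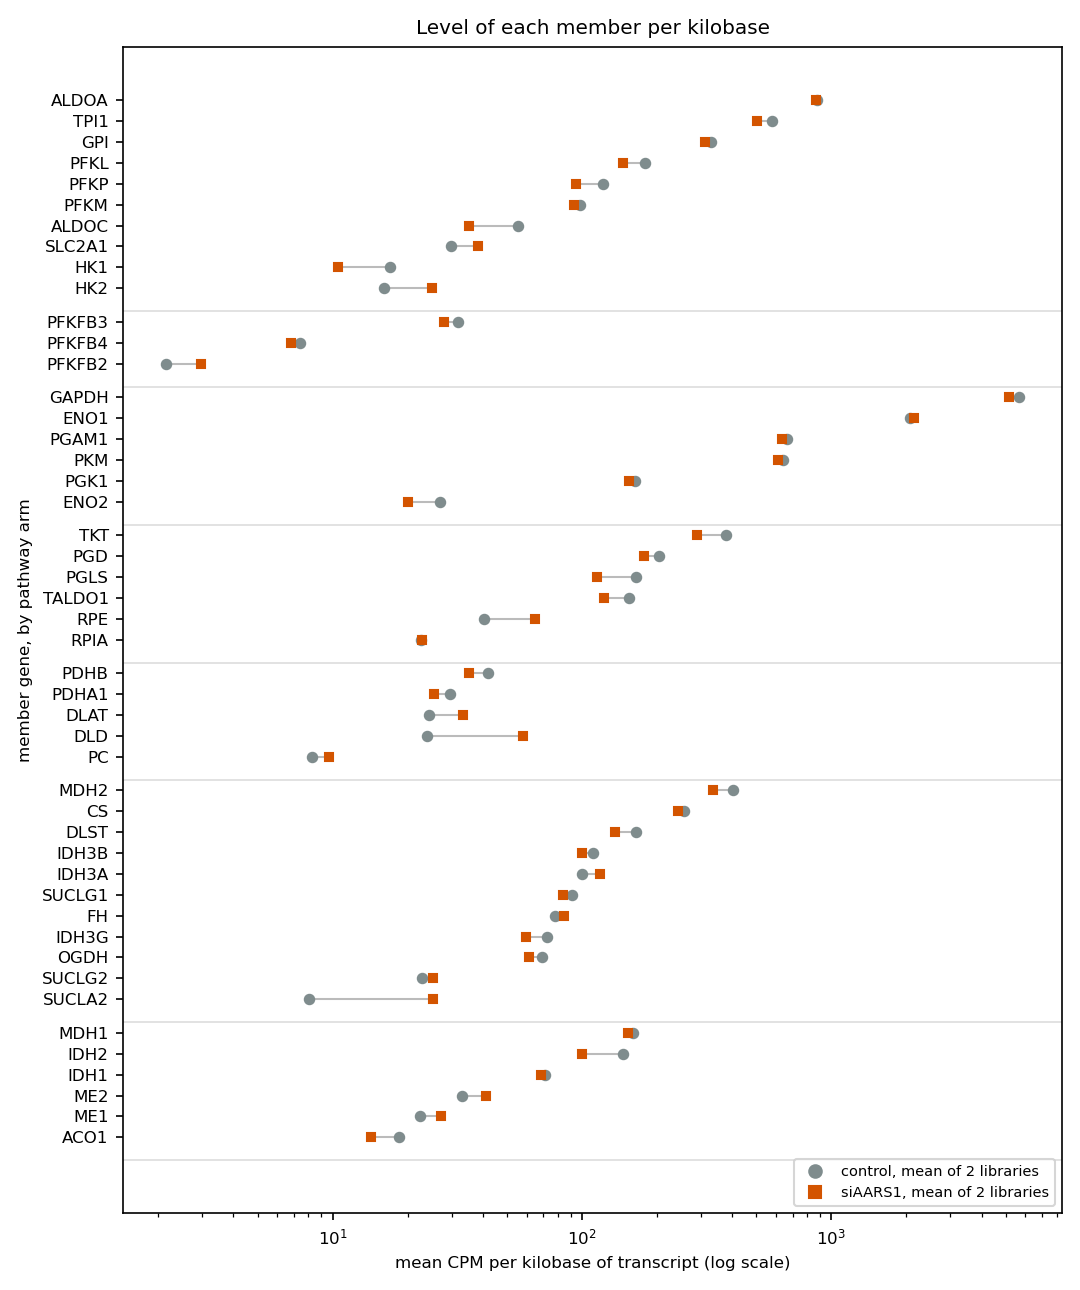
Mean CPM per kilobase of transcript (log axis) of each member in control (circles) and siAARS1 cells (squares), n = 2 libraries each, ordered within each pathway arm by the control level. The levels run from 2.15 (PFKFB2) to 5671 (GAPDH) in control cells, and the longest lines between the groups are those of SUCLA2 and DLD.

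A share of an isoform within its family does not depend on the scaling of the library, so 8 families were described in this way, per kilobase. HK2 made up 47.9% and 49.4% of hexokinase transcripts in control libraries and 69.4% and 71.4% in siAARS1 libraries, a gain of 21.7 percentage points. SUCLA2 made up 25.9% and 26.5% of the ligase beta subunits in control and 48.9% and 51.4% in siAARS1 libraries, a gain of 24.0 points. Which form leads depends on the length used. Without division by length HK2 already had a mean of 57.6% in controls, and by the longest transcript SUCLA2 had 56.8% and 59.3% in siAARS1 libraries.

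The other shifts were smaller. IDH2 went from 67.5% and 67.2% of NADP isocitrate dehydrogenases to a mean of 59.4% ± 0.873 (SD, n = 2), and ALDOC from 5.91% and 5.94% of aldolases to 3.90% and 3.85%. PFKM went from 24.9% and 24.2% of phosphofructokinases to 27.4% and 28.4%, while the shares of PFKP and PFKL changed by −2.10 and −1.29 points. The PFKL change was −0.679 points without siAARS1 replicate 2 and −0.769 without control replicate 2. MDH2 went from 71.08% and 72.04% of malate dehydrogenases to 69.2% and 68.3%, and ENO2 from 1.296% and 1.281% of enolases to 0.930% and 0.919%. In every one of these the libraries of the groups lay apart. The malic enzyme shares differed by 0.867 points, less than the SD of 0.977 between the control libraries. By an exact two-sided permutation test each share gave p = 0.333, the smallest that 2 against 2 libraries allow, so no share could pass 0.05. Shares also depend on the length chosen: with the longest transcript ME1 was the larger malic enzyme, at 72.2% in control cells, where the median length gave 40.5%. IDH1 had a mean of 32.7% in control and 40.6% in siAARS1 cells by the median length, but 46.7% and 55.3% by the longest transcript. Shares are free of library scaling, not of GC content and length. After a correction for both, IDH1 had a log2 fold change of −0.57 against −0.25 for IDH2, and MDH1 one of −0.26 against −0.06 for MDH2, so both shifts would run the other way.

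**Figure D4:**
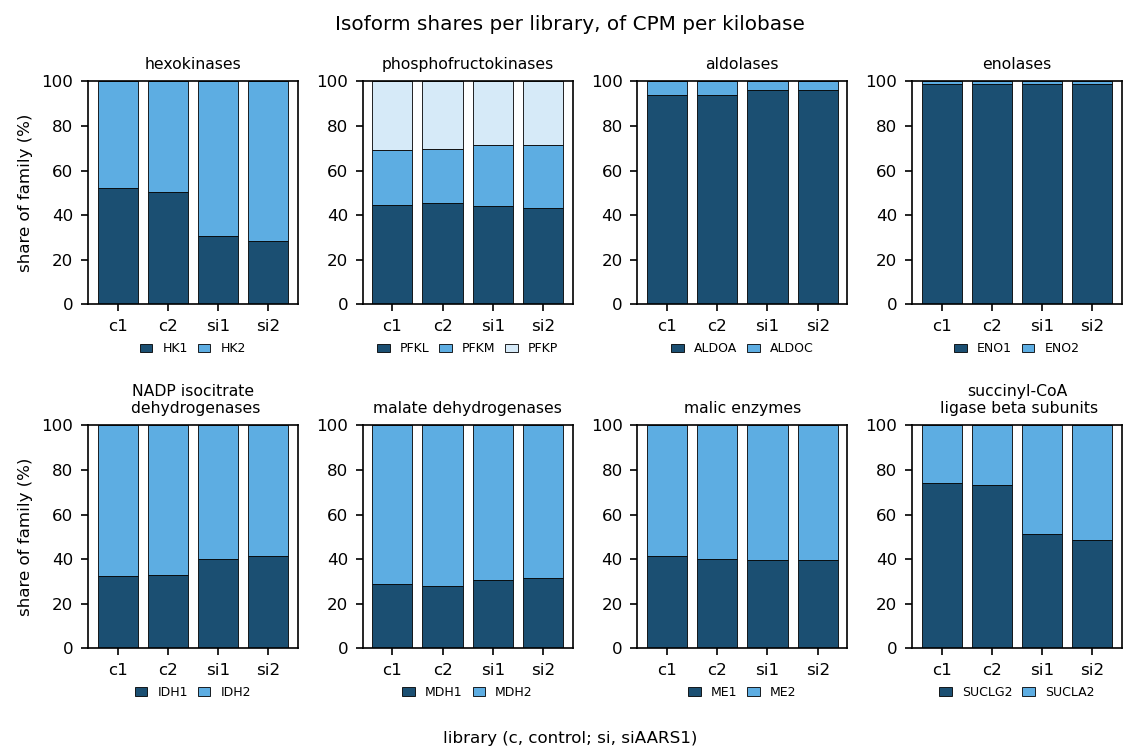
Share of each isoform in its family, in percent of CPM per kilobase (median transcript length), in control libraries 1 and 2 (c1, c2) and siAARS1 libraries 1 and 2 (si1, si2). HK2 and SUCLA2 took larger parts of the bars in both siAARS1 libraries, by 21.7 and 24.0 points.

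Among the members, those called higher had transcripts of lower GC content than those called lower. Their median GC contents were 44.0% and 55.4%. Across the 47 members the rank correlation of log2 fold change with GC content was −0.55, and across 13819 genes it was −0.66, a description over genes that share the same 4 libraries. After the trend on GC content and length was taken out of each library, the calls were 18 members higher and 18 lower (32.0% and 34.1% of all genes), and 20 members stood on the other side of 0. The correlation was then 0.34 over the members and 0.03 over all genes. Real changes that run along GC content or length are removed by it too.

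Calls that held in the deposited scaling, in the 4 others and after this correction were 5 higher and 10 lower, beside 14.9% and 18.2% of all genes. The 5 higher were SUCLA2 (corrected value 0.83), RPE (0.71), HK2 (0.67), SLC2A1 (0.61) and DLD (0.59). The 10 lower were HK1 (−0.50), PDHB (−0.45), ACO1 (−0.45), PDHA1 (−0.38), ALDOC (−0.37), IDH2 (−0.25), ENO2 (−0.18), PGLS (−0.15), DLST (−0.08) and TKT (−0.06). SUCLA2 and DLD went from 1.59 to 0.83 and from 1.27 to 0.59. DLAT (−0.46), ME1 (−0.80), ME2 (−0.29), PFKFB2 (−0.24) and FH (−0.17) were called lower after the correction, having been called higher before it. GAPDH (0.16), PFKFB3 (0.14), IDH3B (0.11), OGDH (0.08) and TPI1 (0.07) went from called lower to called higher. PFKL (0.05), IDH3G (0.04), PGD (0.0029), CS (−0.05), MDH2 (−0.06), PFKP (−0.06), TALDO1 (−0.06), SUCLG2 (−0.07) and SUCLG1 (−0.07) no longer passed, and PGK1 went from −0.08 to −0.72. Of the members not called before, ALDOA (0.32), ENO1 (0.30), PKM (0.24), GPI (0.17), PGAM1 (0.14) and PFKM (0.08) were called higher after the correction. IDH1 (−0.57) and MDH1 (−0.26) were called lower after it, while PFKFB4 and RPIA were still not called. The values for IDH3A rest on a median annotated transcript of only 566 bases. Those for RPE rest on a median of 925 bases, where its longest transcript has 3165.

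**Figure D5:**
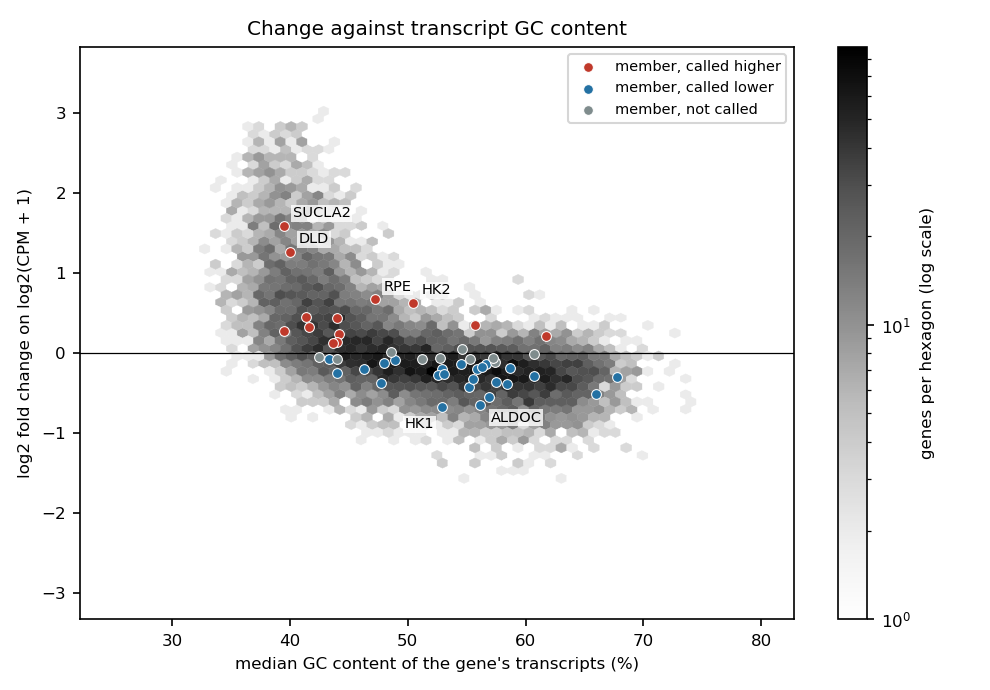
Log2 fold change on log2(CPM + 1) against the median GC content of each gene's transcripts (%), with all tested genes as grey hexagons (darker means more genes, log scale) and the 47 members as points coloured by call. Members called higher lie mostly at the low-GC end, around a median of 44.0% and with PC and SLC2A1 as exceptions, and those called lower around 55.4%.

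Other genes of the same pathways were read from a list of 53, of which 36 were listed in the table and 29 called, 7 higher and 22 lower, beside 32.6% and 38.0% of all genes. Of 7 listed genes around the pentose phosphate pathway 6 were called, 5 lower and 1 higher. H6PD and RBKS fell by 0.64 and 0.68, and PGM2 rose by 0.71. RBKS, at a mean of 2.24 CPM in controls and 1.00 CPM after knockdown, lost its call without control replicate 2 (−0.43). Of 6 listed glycolysis isoforms 4 were called, 3 lower and 1 higher, among them ENO3 (−0.80), the glucose carrier SLC2A3 (−0.60) and TIGAR (0.42, with 0.26 without siAARS1 replicate 2 and −0.21 after the GC correction). In the citrate cycle 6 of 7 listed genes were called, all lower. Among them were SDHA (−0.37, and −0.12 after the GC correction), SDHB (−0.25 and −0.17) and OGDHL (−0.55 and −0.24). After the GC correction 2 of the 7 were called higher and 3 lower (32.0% and 34.1% of all genes). The correction put H6PD at −0.38, RBKS at −0.55, PGM2 at 0.51, ENO3 at −0.54 and SLC2A3 at −0.87.

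At the gate between lactate, pyruvate and the mitochondrion 11 of 14 listed genes were called, 5 higher and 6 lower. That is 78.6%, beside 70.7% of all genes, of which 32.6% were higher and 38.0% lower. After the GC correction 4 of the 14 were called higher and 8 lower (32.0% and 34.1% of all genes). The lactate dehydrogenase subunits LDHA and LDHB, named after their values were seen, rose by 0.37 (adjusted p = 3.81e-09) and 0.36 (adjusted p = 3.41e-09). LDHA stood at 0.15 under median scaling and 0.08 after the GC correction, and LDHB at 0.14 and 0.25. PDHX, which anchors DLD in the pyruvate dehydrogenase complex, rose by 0.67 (adjusted p = 2.79e-09), with 0.26 after the GC correction. PDK1, a kinase that switches this complex off, averaged 6.80 ± 0.20 CPM in controls and 9.81 ± 1.56 CPM after knockdown (SD, n = 2). Its log2 fold change was 0.46, and −0.25 after the GC correction, a call lost without siAARS1 replicate 2 (0.32). PDK2 fell by 0.46 (−0.13 after the GC correction) and PDK3 by 0.45 (−0.58 after it). Both listed genes of gluconeogenesis were lower. PCK2, the mitochondrial phosphoenolpyruvate carboxykinase, averaged 168 ± 3.17 CPM in controls and 77.5 ± 1.72 CPM after knockdown (−1.10, adjusted p = 1.08e-15, and −0.77 after the GC correction), and G6PC3 stood at −0.31 (0.02 after the GC correction).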

How the data were processed

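The authors deposited 1 table of CPM per gene for 4 libraries. Per the submitters' processing notes, RSEM 1.3.3 and hg38 were used. The aligner, the annotation and the use of strand were not given in the sources used here. CPM does not correct for length or GC content. Each deposited CPM value (100% in every library) equalled a whole number of reads within 0.1 read, and reads recovered in this way were used for edgeR 4.0.16 and DESeq2 1.42.0 only. A count of 3 reads, the limit that 0 reads allow, equals 0.0880 to 0.0971 CPM and covers counting error only.

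Groups and replicate numbers come from the sample titles. The main test was limma 3.58.1 (trend, R 4.3.3) on log2(CPM + 1), group as the only term, after a filter that asked for a group mean of 1 CPM or more. Adjustment was by Benjamini-Hochberg over every gene tested, the threshold was 0.05, and a fold change on this scale understates that of low genes. The chi-square statistic per gene between replicates was 3.63 and 3.62, so all 4 libraries were kept as separate samples. Transcript length, GC content and coordinates are medians or positions of GENCODE v29 (GRCh38), matched for 14027 identifiers. The GC content and length correction used mgcv 1.9.3. The fits were tested on simulated data in which only a small part of the genes was given a set fold change. In the data themselves 70.7% of genes were called, so the simulation does not speak to the choice of scaling. The members and lists were chosen with earlier results of these data known. Values in every library were to be given for AARS1, for each arm's highest and lowest member by log2 fold change, for members called and at least 1.5-fold changed, and for isoform families. Of other pathway genes, up to 3 called genes per list with the largest change are named. A pair of further genes that the rule names is not reported here. LDHA, LDHB and PDK3 were added after their values were seen. Alternatives were another filter, pseudocount, scaling, tool or threshold, the replicate number as a block, the correction, and leaving out each library.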

Additional observations from a re-analysis of the deposited data

How the results depend on the processing

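The limits are 2 libraries per group, 1 cell line, and for the members at least 325 reads per library. Over all genes, 10032 were called by limma, 9806 by edgeR and 8355 by DESeq2 on the recovered reads. Of the 47 members, 46 kept direction and call with no filter and with a pseudocount of 0.1, 41 at a threshold of 0.01, 42 with edgeR, 40 with DESeq2, 38 under quantile normalization, 31 under median scaling and 19 once GC content and length were corrected for.

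Median scaling gave 7 members called higher and a median log2 fold change of the members of −0.30. That median was −0.094 under quantile normalization, −0.048 once GC content and length were corrected for with or without the replicate block, −0.044 with edgeR and −0.029 with DESeq2. The correction called 1 of the 2 gluconeogenesis genes, with or without the block. Signs turned under median scaling for ENO1 (−0.17), RPIA (−0.21), PC (−0.0065), SUCLG2 (−0.078) and FH (−0.10), and under quantile normalization for GAPDH (0.17), RPIA (−0.14) and SUCLG2 (−0.039). ALDOA was at 0.027 with edgeR and 0.042 with DESeq2. Once GC content and length were corrected for, with or without the replicate block, the sign turned for GPI (0.17), PFKL (0.049), PFKM (0.081), ALDOA (0.32), TPI1 (0.074), PFKFB2 (−0.24), PFKFB3 (0.14), PFKFB4 (0.17), GAPDH (0.16), PGAM1 (0.14), PKM (0.24), PGD (0.0029), DLAT (−0.46), IDH3B (0.11), IDH3G (0.043), OGDH (0.084), SUCLG2 (−0.066), FH (−0.17), ME1 (−0.80), ME2 (−0.29), TIGAR (−0.21), PDK1 (−0.25) and G6PC3 (0.024). The cause was not tested.

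Same-numbered libraries deviated together with a correlation of 0.118 over genes, from 2 pairs only, so the numbers were not taken as pairs. With the replicate block 36 members were called, 13 higher and 23 lower, and 10389 genes in all against 10032. PGK1 alone among the members lost its call (adjusted p = 0.0529).

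Fits that each left out 1 library called 32 to 35 members, 11 higher in each and 21 to 24 lower, and 8908 to 9283 genes in all, with a member median of −0.096 to −0.075. ALDOA ranged from −0.044 to 0.022 and RPIA from −0.068 to 0.097. The lone library of a group was there assumed to vary like the other group.

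The change in the HK2 share was 19.7 points without division by length. That of PFKM was 4.06 points without length. PFKP changed by −2.86 points with the longest transcript and −2.87 without length, where the median length gave −2.10. ALDOC changed by −1.94 and −2.26 points and ENO2 by −0.409 and −0.491 points under the same settings. Leaving out each library, added for the shares after the data were seen, gave 20.7 to 22.7 points for HK2 and 22.7 to 25.2 points for SUCLA2.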
